A study of Homo sapiens with 8 samples.

Results

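The nuclear genes for the subunits of oxidative phosphorylation were examined in CCRF-CEM cells, an established human line of T-cell acute lymphoblastic leukaemia. Members were the probe sets whose platform gene symbol starts with NDUFA, NDUFB, NDUFC, NDUFS or NDUFV (complex I), UQCR (complex III), COX4 to COX8 (complex IV) or ATP5 (complex V), or is SDHA, SDHB, SDHC or SDHD (complex II). The complex I assembly factors, whose symbols start with NDUFAF, were left out. This gave 79 of 21448 probe sets: 32 of complex I, 3 of complex II, 8 of complex III, 17 of complex IV, 18 of complex V and 1, NDUFV1-DT, that belongs to no complex. Each gene had 1 probe set, and SDHB and UQCRFS1 were not analysed here.

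Both groups of the study were CCRF-CEM cells embedded for 1 h in bovine type I collagen at 1.7 mg/mL, a three-dimensional matrix. One group of 4 samples had first been given 1 µM OICR-9429 for 1 h, and the other 4 samples were untreated, with no solvent named for them. OICR-9429 is a small molecule that occupies a pocket of WDR5, a scaffold protein of histone H3 lysine 4 methyltransferase complexes. Samples in each group are numbered 1 to 4 and called biological replicates, and no label ties them to separate passages or days. All p-values therefore cover only the spread between these samples. Values are log2 expression levels on Affymetrix arrays, 1 array per sample. The untreated array numbered 2 is called "untreated 2", and so on.

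In oxidative phosphorylation, complexes I and II pass electrons from NADH and succinate to ubiquinone, complex III passes them to cytochrome c, and complex IV passes them to oxygen. Complexes I, III and IV pump protons across the inner mitochondrial membrane, and complex V, the ATP synthase, makes ATP from the returning flow. All the complexes but complex II also hold subunits encoded in mitochondrial DNA, which were not analysed here.

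Between treated and untreated samples, 0 of 79 members passed the test across all probe sets, as did 0% of all probe sets. Between replicate numbers, 53 of 79 members (67.1%) differed, against 50.3% of all probe sets and 7683 of the 10721 above the median level. Medians by complex ran differently over the numbers. Calls at number 1 were mostly higher and those at number 2 mostly lower than at the other numbers, with the highest shares in complex I. The general subunits of complex IV had their highest median at number 1, and its tissue-restricted isoforms at number 4.

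Array medians over all probe sets ran from 6.38 to 6.46. The 349 olfactory receptor probe sets, for genes mostly silent outside the nose, had a median level of 3.39 and a 95th percentile of 4.83, used here as a limit for silent genes. Of the members, 75 had a mean above that limit. The exceptions were NDUFV1-DT and the isoform genes COX6B2, COX7B2 and COX8C. All 18 measured T-cell markers lay above the limit, among them CD3D and CD3E with mean levels of 11.28 and 11.82. The mean level over these markers ran from 8.61 to 9.12 over the arrays. Of the markers of other cells, 4 of 5 B-cell, 5 of 7 myeloid, 5 of 5 erythroid and megakaryocyte, 5 of 7 fibroblast and epithelial and 3 of 6 NK and cytotoxic markers also had means above the limit. MS4A1, LYZ, FCGR1A, CDH1, KRT18, KLRD1, GNLY and KLRF1 did not.

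**Figure D1:**
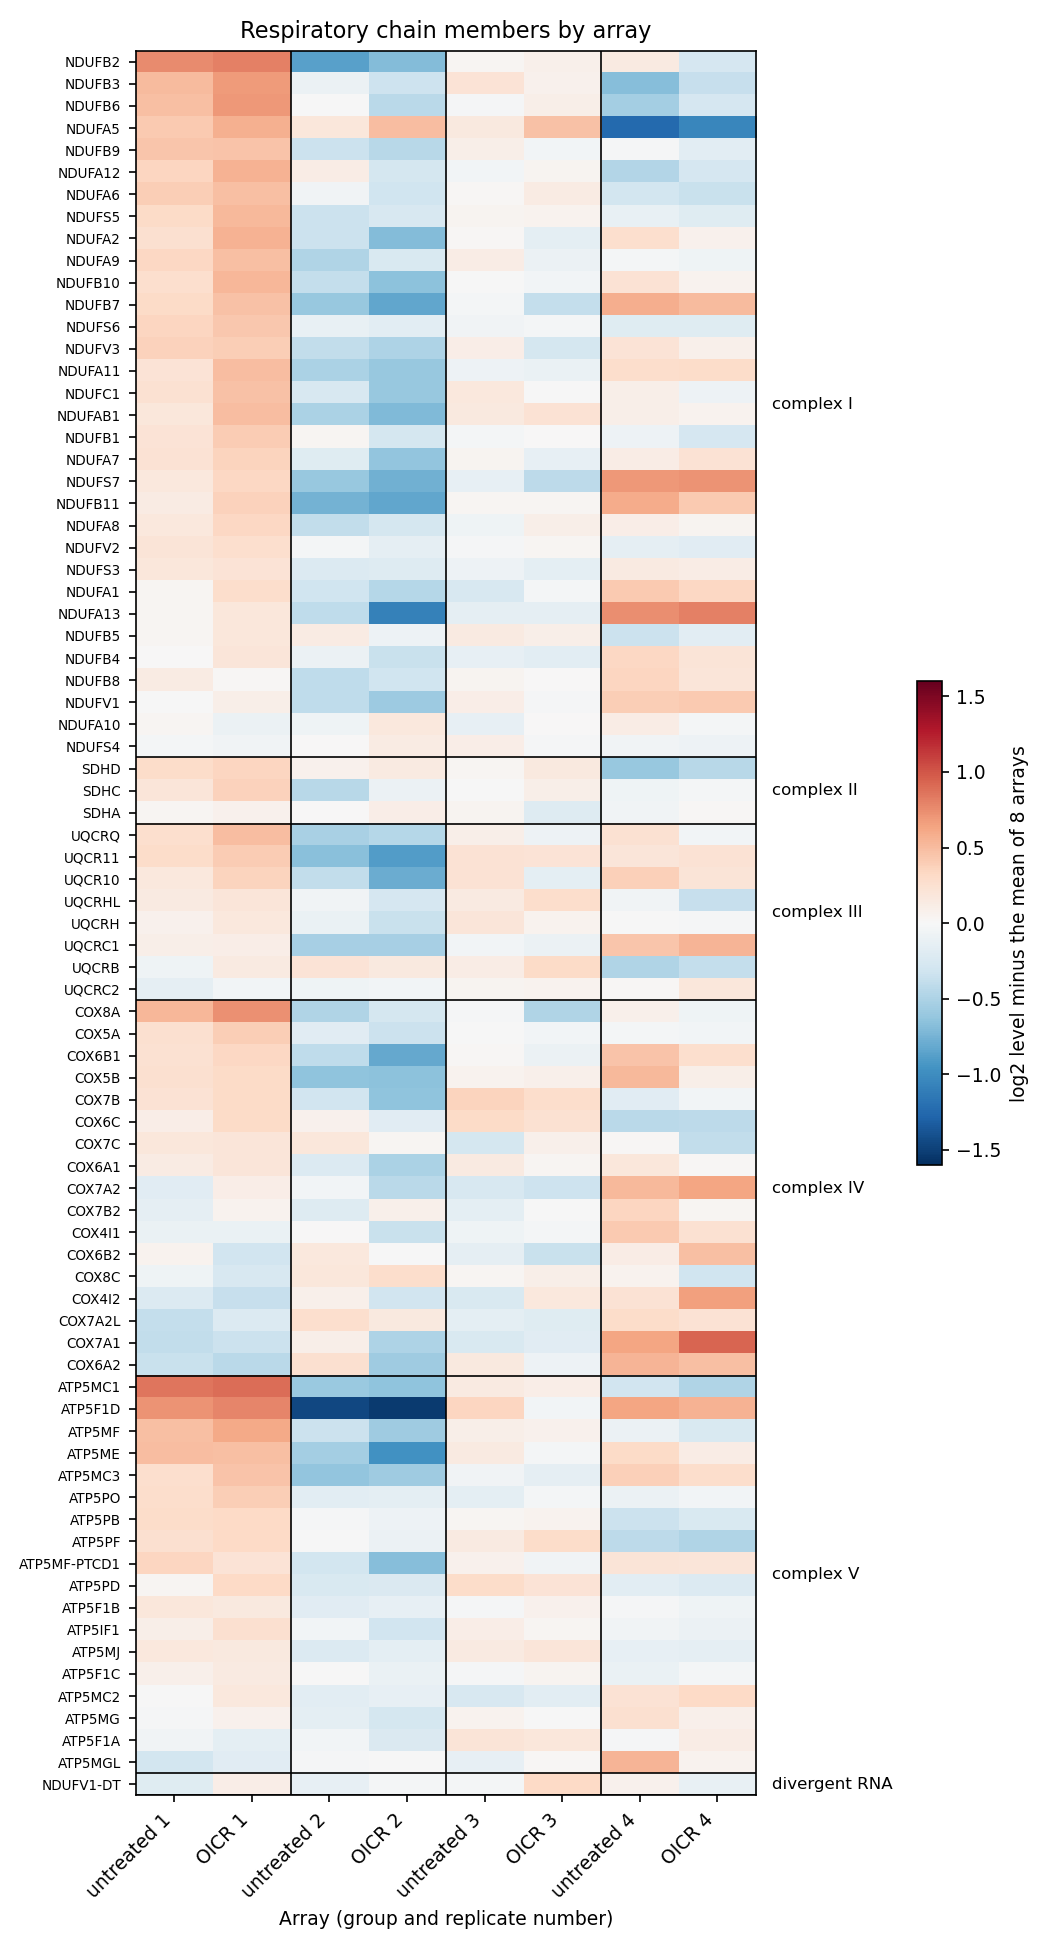
Heat map of the 79 members (rows, by complex) on the 8 arrays (columns, untreated and OICR side by side within each number). Colour gives the log2 level minus that member's mean over the 8 arrays; the arrays of number 1 are mostly red, those of number 2 mostly blue, and those of number 4 hold both, with NDUFA5 at 7.28 and 7.48 there.

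Replicate numbers were compared while treatment was held in the model, with each number set against the mean of the remaining 3 (limma, Benjamini-Hochberg adjustment over all probe sets, threshold 0.05). These contrasts share arrays with one another, so a member far above the rest at one number is pulled below 0 at the others. Each number has 2 arrays, 1 treated and 1 untreated, and the error comes from how the treated-minus-untreated difference varied over numbers, not from separate cultures. In the test of any difference between numbers, 53 members (67.1%) passed, against 50.3% of all probe sets and 7683 of the 10721 above the median level. By complex the 53 members were 25 of 32 in complex I, 1 of 3 in II, 5 of 8 in III, 11 of 17 in IV and 11 of 18 in V.

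At number 1, 27 members (34.2%) were higher than at the other numbers and 1 was lower, against 10.6% higher and 6.14% lower among all probe sets. The 27 were 15 of complex I, 1 of II, 2 of III, 2 of IV and 7 of V. The median difference was 0.46 in complex I, 0.37 in II, 0.19 in III, -0.05 in IV and 0.31 in V, against -0.03 over all probe sets. With 1 array left out, the complex IV median ran from -0.04 to 0.15. The count rested on both arrays of number 1 and on the arrays of number 3: it was 1 without untreated 1, 1 without OICR 1, 13 without untreated 3 and 11 without OICR 3.

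At number 2, 34 members (43%) were lower and 1 was higher, against 11.6% lower and 15.4% higher among all probe sets. They were 19 of complex I, 4 of III, 5 of IV and 6 of V, and none of the 3 measured genes of complex II. Medians were -0.48 in complexes I and III, 0.08 in II, -0.23 in IV and -0.24 in V, against -0.01 over all probe sets. Without OICR 2 the count was 10, and leaving out any other array gave 27 to 34. The median of complex IV ran from -0.45 to -0.07 with 1 array left out.

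At number 4, 21 members (26.6%) were higher and 11 (13.9%) lower. Among all probe sets 26.3% were higher and 25.5% lower there, so the share of higher members lay at the background. Complex IV held 8 of the 21 from 17 genes, with a median of 0.35 (0.18 to 0.37 with 1 array left out), while the medians of complexes I, II, III and V were 0.08, -0.07, 0.13 and -0.07, against 0.08 over all probe sets. The count of higher members was 12 without untreated 4 and 13 without untreated 3, and that of lower members was 6 without untreated 4. At number 3, 0 members passed in either direction in limma, against 1.18% higher and 0.2% lower among all probe sets. At an unadjusted p under 0.05, 7 of 79 members were higher and 3 lower there, against 2545 and 1487 of all 21448 probe sets.

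Without any model, both arrays of number 1 lay above all other 6 arrays for 31 members (39.2%) and below them for 2, against 9.12% and 8.34% of all probe sets. Both arrays of number 2 lay below the other 6 for 41 members (51.9%) and above them for 1, against 10.4% and 12.2%. For number 4 these figures were 17 members above (21.5%) and 9 below (11.4%), against 25.4% and 24.2%.

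Of the 95 calls of members at single numbers, 25 passed with each array left out in turn, and the other 70 were lost without at least 1 array. An own array left out leaves 1 at that number, so fewer calls can pass. At number 1 only ATP5MC1 was among the 25. At number 2 these were NDUFS7, NDUFB2, NDUFB7, NDUFB11, UQCR11, COX5B, ATP5F1D, ATP5MC1, ATP5MC3 and ATP5ME, all lower. At number 4 they were 9 higher (NDUFV1, NDUFS7, NDUFA13, NDUFB7, NDUFB11, UQCRC1, COX7A1, COX7A2 and ATP5F1D) and 5 lower (NDUFA5, SDHD, UQCRB, COX6C and ATP5PF). All other calls of members described here are among the 70.

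Most members have high levels, and some of the contrasts moved with level over the whole array. Of the 10721 probe sets above the median level, 18.7% were higher at number 1, 19% lower at number 2 and 41.6% lower at number 4. The 73 members above that level had 37%, 46.6% and 15.1% there. Across all probe sets the differences at numbers 1 to 4 correlated with mean level at r = 0.23, 0.04, 0.22 and -0.23. Across the 79 members, which share the same arrays, r was 0.32, -0.08, 0.12 and -0.21. The median of the olfactory receptor probe sets was -0.05 at number 1 and 0.13 at number 4, and the part of these shifts in the members' differences was not tested.

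Marker levels also moved with the numbers. Of the 18 T-cell markers, 4 were higher at number 3, and 5 were higher and 8 lower at number 4. Over all probe sets 1.18% were higher at number 3, and 26.3% were higher and 25.5% lower at number 4. Of the probe sets above the median level, 41.6% were lower at number 4. The marker counts were not tested against these shares. CD1E, a marker of cortical thymocytes, had 11.10 and 11.05 on the arrays of number 3 and 7.54 and 7.80 on those of number 4. Mean log2 levels over the myeloid markers were 5.69 and 5.56 on the arrays of number 4 and 5.11 to 5.40 on the other 6. Those over the NK and cytotoxic markers were 5.74 and 5.51 at number 4 and 5.00 to 5.27 elsewhere, and those over the erythroid and megakaryocyte markers 6.89 and 6.67 against 6.16 to 6.49. B-cell markers ran from 6.68 to 7.00 and fibroblast and epithelial markers from 5.85 to 6.13. Within the myeloid list the rise at number 4 was uneven. CD68 had a difference of 1.68, while LYZ, MPO and FCGR1A had -0.008, -0.012 and 0.057. The median difference over the 7 myeloid markers was 0.22, against 0.08 over all probe sets. The part of these markers in the members' differences was not tested. In these bulk samples a change in the number of cells of a type and a change in RNA per cell cannot be told apart.

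**Figure D2:**
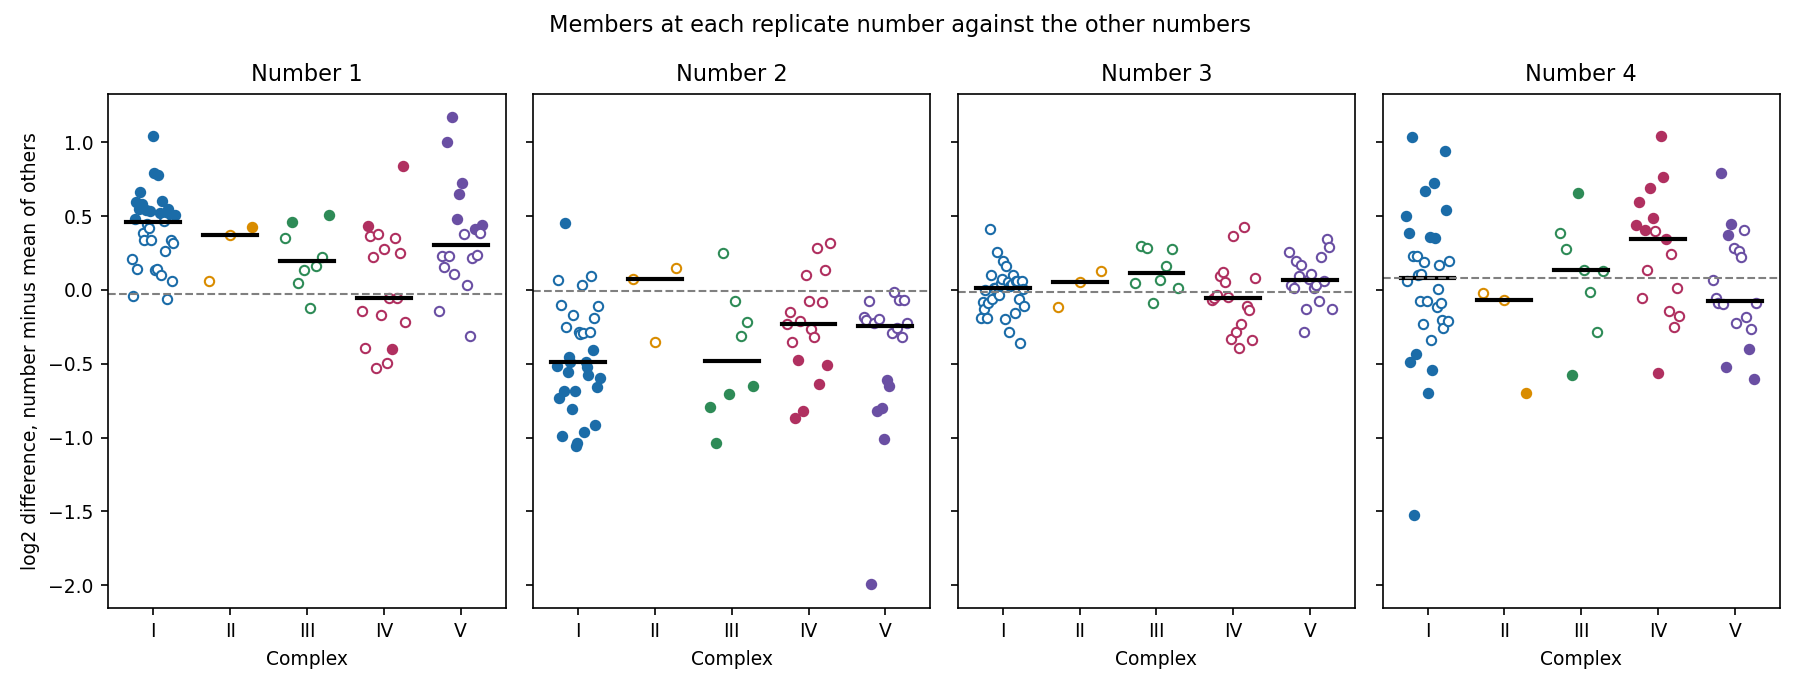
Log2 difference of each number minus the mean of the other numbers (vertical axis) for each member of complexes I to V (horizontal axis), 1 panel per number. Filled points passed limma's adjusted threshold of 0.05, open points did not, black bars are the medians of a complex and the dashed line is the median over all probe sets. Complex I lies mostly above the dashed line at number 1 (median 0.46) and below it at number 2 (median -0.48).

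Complex I, the NADH dehydrogenase, had 4 core subunits and 28 accessory subunits on the array. The 15 members that were higher at number 1 were all accessory subunits, with differences of 0.48 (NDUFA11) to 1.04 (NDUFB2). None of the 4 core genes, NDUFV1, NDUFV2, NDUFS3 and NDUFS7, passed at number 1, with differences of 0.06 to 0.34. At number 2, 2 core genes and 17 accessory genes were lower, from -0.40 (NDUFS5) to -1.06 (NDUFB11). Whether core and accessory genes differ from each other was not tested.

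NDUFB2, an accessory subunit of the membrane arm, had the largest difference of complex I at number 1. Its untreated levels were 8.89, 7.27, 8.16 and 8.28 at numbers 1 to 4, and its OICR levels 8.94, 7.44, 8.22 and 7.87. Both arrays of number 1 were the highest and both of number 2 the lowest, with differences of 1.04 ± 0.14 (SE; limma, adjusted p = 0.00402) and -1.04 ± 0.14 (adjusted p = 0.00208).

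NDUFA5, an accessory subunit of the peripheral arm, was far lower at number 4 than elsewhere. Its untreated levels were 8.95, 8.71, 8.68 and 7.28, and its OICR levels 9.09, 9.02, 8.99 and 7.48. The 2 arrays of number 4 lay apart from the other 6, which spanned 8.68 to 9.09, and the difference was -1.53 ± 0.11 (SE; limma, adjusted p = 4.5e-05). NDUFB3, a membrane arm subunit, had 9.53, 8.93, 9.24 and 8.34 untreated and 9.71, 8.69, 9.10 and 8.66 with OICR-9429. Its difference at number 4 was -0.70 ± 0.14 (adjusted p = 0.00389). NDUFB6 (-0.54), NDUFA12 (-0.49) and NDUFA6 (-0.43) were the other complex I genes lower there.

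NDUFA13 and NDUFS7 were the complex I genes with the highest differences at number 4. NDUFA13, an accessory subunit also known as GRIM-19, had untreated levels of 8.84, 8.41, 8.67 and 9.56 and OICR levels of 9.0, 7.73, 8.67 and 9.62. Number 4 was the highest and number 2 the lowest in each group, with a difference at number 4 of 1.04 ± 0.17 (SE; limma, adjusted p = 0.00148). NDUFS7, the core subunit with the last iron-sulfur cluster before ubiquinone, had 7.84, 7.06, 7.54 and 8.36 untreated and 8.0, 6.90, 7.25 and 8.38 with OICR-9429, a difference at number 4 of 0.94 ± 0.13 (adjusted p = 0.000556). NDUFB7 (0.72), NDUFB11 (0.67), NDUFV1 (0.54), NDUFA1 (0.50), NDUFA11 (0.38), NDUFB4 (0.36) and NDUFB8 (0.35) were also higher there.

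Of the 32 complex I members, 7 did not pass the test of any difference between numbers: NDUFV2, NDUFS3, NDUFS4, NDUFA10, NDUFB1, NDUFB4 and NDUFB5. NDUFS4, an accessory subunit of the peripheral arm, kept within 9.17 to 9.38 on all 8 arrays. NDUFA10, on the matrix side of the membrane arm, kept within 9.27 to 9.56. NDUFB4 was called at number 4 alone, which the joint test need not share.

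NDUFV1-DT is an RNA whose RefSeq start on chromosome 11 lies 230 bases from that of NDUFV1, on the other strand. Its levels of 3.15 to 3.67 lay below the silent limit on every array, and NDUFV1, the subunit that binds NADH and FMN, ranged from 9.47 to 10.47.

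Promoter windows were taken from RefSeq (GRCh38.p14) for 64 of the 79 members, each 300 bases long, 250 before and 50 after the annotated start. They were searched on both strands for 3 motifs of factors known to act on respiratory genes. The ETS motif CCGGAAG, of the family that holds GABPA, was present in the windows of 18 of 64 genes, the NRF1 motif GCGCANGCG in 22 and the YY1 motif AAGATGGCG in 8. By window, the shares were 25.0%, 28.9% and 11.8% of 76 member windows, against 10.3%, 7.5% and 1.7% of all 35116 windows. A match is a description of the letters, not of binding. Median GC content, with windows averaged within each gene, was 59.2% over the 64 members, with a range of 40.3% to 74.7%. Over the 14267 probe sets with a window it was 62.7%. Counted per window, the median over all 35116 windows was 58.7%.

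Members with the same motif lay at both ends of the contrast at number 4. The 150 bases before the start are shown, on the strand of the gene, for genes from a pool of 9 members. These members had 1 promoter window, passed the threshold at number 4 and held a motif in this stretch. Their stretch overlapped no other gene's RefSeq span. Shown are the genes with the 2 highest and the 2 lowest differences at number 4 within this pool. NDUFA5 (-1.53, 3 windows) and ATP5PF (-0.60, 2 windows) also held a motif in their windows but were outside the pool. The 2 lowest include NDUFB4, which was called higher at number 4. NDUFV1 is added as a gene with a divergent neighbour and none of the 3 motifs here. NDUFS7 (chr19:1383757-1383906, plus strand, 0.94), NDUFB4 (chr3:120596186-120596335, plus strand, 0.36) and NDUFA12 (chr12:95003698-95003847, minus strand, -0.49) hold the NRF1 motif. NDUFA13 (chr19:19516075-19516224, plus strand, 1.04) holds the ETS motif, and NDUFV1 (chr11:67606786-67606935, plus strand, 0.54) none. Capitals mark the motif.
NDUFS7: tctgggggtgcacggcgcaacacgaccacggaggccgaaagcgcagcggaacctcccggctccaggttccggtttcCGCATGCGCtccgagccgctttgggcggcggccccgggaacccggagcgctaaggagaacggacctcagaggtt
NDUFA13: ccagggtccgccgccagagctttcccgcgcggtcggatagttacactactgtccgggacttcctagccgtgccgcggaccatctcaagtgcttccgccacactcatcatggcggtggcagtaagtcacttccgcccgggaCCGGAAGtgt
NDUFB4: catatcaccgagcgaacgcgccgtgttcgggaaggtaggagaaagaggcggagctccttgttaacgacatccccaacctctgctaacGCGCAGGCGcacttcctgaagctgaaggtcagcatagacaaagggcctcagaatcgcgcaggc
NDUFA12: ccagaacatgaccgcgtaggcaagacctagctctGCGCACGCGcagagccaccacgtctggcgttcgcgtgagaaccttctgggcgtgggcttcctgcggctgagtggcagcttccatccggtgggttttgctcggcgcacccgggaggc
NDUFV1: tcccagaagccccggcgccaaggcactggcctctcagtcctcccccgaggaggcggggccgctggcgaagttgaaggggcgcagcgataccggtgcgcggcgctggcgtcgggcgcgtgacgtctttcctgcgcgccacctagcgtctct
Over the 64 members, promoter GC correlated with the difference at numbers 1, 2, 3 and 4 at r = 0.01, -0.14, -0.11 and 0.16. Over all 14267 probe sets with a window, r was 0.06, -0.06, 0.10 and -0.04. With the log10 of gene span, the members had r = 0.26 at number 2 and -0.25 at number 4, and all 17705 probe sets with a span 0.30 and -0.29. These are descriptions over genes that share the same arrays.

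Complex II, succinate dehydrogenase, had 3 measured genes, and only SDHD passed the test of any difference between numbers. SDHA, the flavoprotein that oxidises succinate, had untreated levels of 9.20, 9.18, 9.21 and 9.12 and OICR levels of 9.24, 9.28, 8.96 and 9.19, and passed at no number (limma, adjusted p for any difference = 0.782). SDHD, a membrane anchor with a share in binding ubiquinone and haem, had 9.82, 9.60, 9.56 and 8.92 untreated and 9.87, 9.67, 9.68 and 9.08 with OICR-9429. Its arrays of number 4 were the lowest, by -0.70 ± 0.11 (SE; adjusted p = 0.00102), and number 1 was higher by 0.43 ± 0.11 (adjusted p = 0.0326). SDHC, the other anchor, had 9.21, 8.58, 9.01 and 8.95 untreated and 9.39, 8.93, 9.11 and 8.99 with OICR-9429, with its lowest value in each group at number 2 (difference -0.35 ± 0.12, adjusted p = 0.0555).

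Complex III, the cytochrome bc1 complex, was lower at number 2 in 4 of 8 members: UQCR11 (-1.04), UQCR10 (-0.79), UQCRC1 (-0.70) and UQCRQ (-0.65). UQCRC1, core protein 1, had untreated levels of 10.33, 9.71, 10.20 and 10.68 and OICR levels of 10.35, 9.71, 10.14 and 10.78. Number 2 was the lowest and number 4 the highest in both groups, and the difference at number 4 was 0.66 ± 0.11 (SE; limma, adjusted p = 0.00148). UQCRC2, core protein 2, kept within 11.35 to 11.67 and passed at no number. UQCRB, an accessory subunit near the ubiquinone site, had 9.48, 9.77, 9.67 and 9.07 untreated and 9.70, 9.71, 9.86 and 9.17 with OICR-9429, and was lower at number 4 by -0.58 ± 0.12 (adjusted p = 0.00366). UQCRH, the hinge protein, and UQCRHL, a near-identical gene copy, may share signal on the array. Their levels ran from 9.34 to 9.89 and from 6.55 to 7.20, and neither passed.

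CYC1 and CYCS are outside the symbol rule. CYC1, the cytochrome c1 subunit of complex III, had untreated levels of 10.04, 8.45, 9.36 and 9.97 and OICR levels of 10.08, 8.57, 9.11 and 9.86. It was lower at number 2 by -1.23 ± 0.12 (SE; limma, adjusted p = 0.00125) and higher at numbers 1 and 4 (0.84 and 0.65). CYCS, cytochrome c itself, had 11.06, 10.40, 10.66 and 9.58 untreated and 11.0, 10.39, 10.89 and 9.59 with OICR-9429, and was lower at number 4 by -1.15 ± 0.12 (adjusted p = 0.000143).

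Complex IV, cytochrome c oxidase, divided by kind of subunit in its medians. The 10 general subunits had median differences of 0.32, -0.41, -0.04 and 0.07 at numbers 1 to 4. The 6 isoforms best known from muscle, lung or testis had -0.30, -0.12, -0.08 and 0.50. Of those 6, COX6A2, COX7A1 and COX4I2 had means above the silent limit, and these 3 were higher at number 4. COX4I2 did not pass the test of any difference between numbers. Whether the 2 kinds differ was not tested.

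COX7A1, the heart and muscle isoform of subunit 7A, had untreated levels of 6.40, 6.89, 6.55 and 7.43 and OICR levels of 6.46, 6.31, 6.62 and 7.73. Its arrays of number 4 lay above the other 6, by 1.04 ± 0.17 (SE; limma, adjusted p = 0.0014). The general isoform COX7A2 had 9.15, 9.29, 9.08 and 9.85 untreated and 9.44, 8.90, 9.0 and 9.96 with OICR-9429, also highest at number 4, by 0.76 ± 0.15 (adjusted p = 0.00321). The difference at number 4 thus passed for both isoforms of subunit 7A.

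For subunit 4, COX4I1 (general) was higher at number 4 by 0.44 ± 0.12 (SE; limma, adjusted p = 0.0177) and COX4I2 (lung) by 0.59 ± 0.18 (adjusted p = 0.0241). COX4I1 ranged from 9.09 to 9.86 and COX4I2 from 5.63 to 6.66. For subunit 6A, COX6A1 (general) was lower at number 2 by -0.48 ± 0.12 (adjusted p = 0.0195). COX6A2 (heart and muscle) had 6.80, 7.41, 7.32 and 7.71 untreated and 6.73, 6.59, 7.08 and 7.64 with OICR-9429, and was higher at number 4 by 0.69 ± 0.16 (adjusted p = 0.00872).

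For subunits 6B, 7B and 8 the second isoforms lay near the silent range. COX6B2 (4.14 to 4.97), COX7B2 (3.05 to 3.59) and COX8C (4.37 to 4.98) passed at no number. Their general partners did: COX6B1 was lower at number 2 (-0.82) and higher at number 4 (0.49), COX7B was lower at number 2 (-0.64), and COX8A differed at number 1 and, less stably, at number 2, where leaving out any of 5 arrays lost the call. COX8A had 11.89, 10.88, 11.34 and 11.45 untreated and 12.09, 11.08, 10.88 and 11.29 with OICR-9429. Its arrays of number 1 were the highest, by 0.84 ± 0.15 (SE; limma, adjusted p = 0.0119).

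COX6C, a small subunit with no second isoform, was the only complex IV gene lower at number 4, by -0.56 ± 0.12 (SE; limma, adjusted p = 0.00617). It had 10.41, 10.38, 10.61 and 9.88 untreated and 10.62, 10.13, 10.55 and 9.89 with OICR-9429. COX7C ranged from 10.08 to 10.67 and passed at no number. COX5A was higher at number 1 (0.43), and COX5B lower at number 2 (-0.87) and higher at number 4 (0.41). COX7A2L, which joins complexes III and IV into supercomplexes, was the 1 member lower at number 1 (-0.40 ± 0.11, adjusted p = 0.0495), and was higher at number 4 (0.35).

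**Figure D3:**
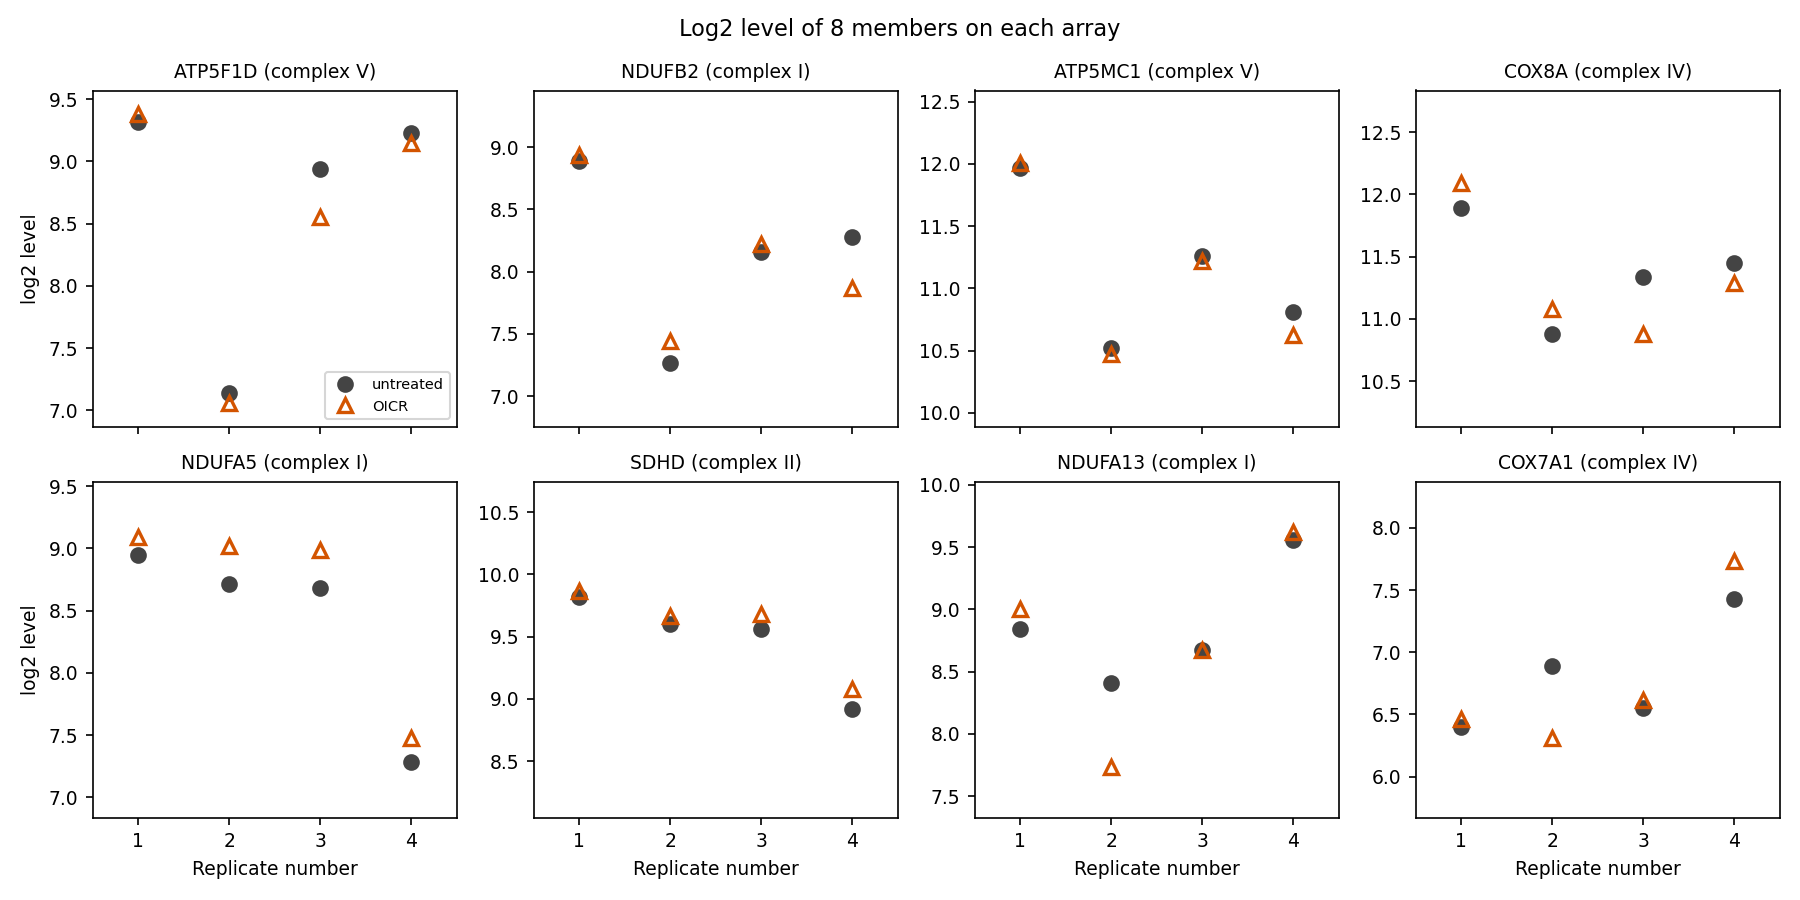
Log2 level (vertical axis, same span in each panel, own range) of 8 members at each replicate number (horizontal axis), with filled circles for untreated and open triangles for OICR arrays. ATP5F1D at number 2 (7.14 and 7.06) and NDUFA5 at number 4 (7.28 and 7.48) lie apart from the other arrays. The gap between the 2 symbols at a number varies. It is wide at number 2 for NDUFA13 (8.41 and 7.73) and COX7A1 (6.89 and 6.31).

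Complex V, the ATP synthase, held the largest difference among all members. ATP5F1D, the delta subunit of the central stalk, had untreated levels of 9.32, 7.14, 8.94 and 9.23 and OICR levels of 9.38, 7.06, 8.55 and 9.15. Both arrays of number 2 lay more than 1 log2 unit below the other 6, by -2.00 ± 0.13 (SE; limma, adjusted p = 0.000641). The other measured genes of the F1 part had narrower ranges. ATP5F1A, ATP5F1B (the catalytic beta subunit) and ATP5F1C (the rotating shaft) ranged from 10.76 to 11.19, from 12.16 to 12.52 and from 10.98 to 11.23, and passed at no number.

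Subunit c of the membrane rotor is encoded by 3 genes that give the same mature protein, and the 3 had different profiles over the numbers. ATP5MC1 had untreated levels of 11.97, 10.52, 11.26 and 10.81 and OICR levels of 12.01, 10.47, 11.22 and 10.63. It was higher at number 1 by 1.17 ± 0.11 (SE; limma, adjusted p = 0.00127), the largest difference of any member at that number, and lower at numbers 2 (-0.82) and 4 (-0.52). ATP5MC3 had 10.27, 9.37, 9.95 and 10.39 untreated and 10.46, 9.44, 9.86 and 10.29 with OICR-9429, lower at number 2 (-0.80) and higher at numbers 1 (0.48) and 4 (0.45). ATP5MC2 had 11.41, 11.25, 11.16 and 11.65 untreated and 11.58, 11.29, 11.25 and 11.74 with OICR-9429, and was higher at number 4 (0.37 ± 0.11, adjusted p = 0.0203). At number 4 ATP5MC1 was lower and both others higher, but each of these 3 calls was lost with 1 of the arrays left out.

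Among the remaining membrane subunits, ATP5ME and ATP5MF were higher at number 1 (0.65 and 0.72) and lower at number 2 (-1.01 and -0.61), while ATP5MG and ATP5MJ passed at no number. Of the peripheral stalk, ATP5PB and ATP5PO were higher at number 1 (0.41 and 0.44), and ATP5PB and ATP5PF lower at number 4 (-0.40 and -0.60). ATP5PF had 12.12, 11.85, 12.01 and 11.44 untreated and 12.18, 11.77, 12.15 and 11.38 with OICR-9429. ATP5PD passed the joint test alone (adjusted p = 0.0418, limma), and ATP5IF1, the inhibitor of ATP hydrolysis, ranged from 9.91 to 10.46 and did not. The readthrough ATP5MF-PTCD1 (5.87 to 6.89) was lower at number 2 (-0.65) and can share signal with ATP5MF. ATP5MGL (5.51 to 6.35), a near-identical copy of ATP5MG, did not pass.

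Assembly factors and mitochondrial gene expression factors were read in the same fit. Over all probe sets, the called shares were 10.6% higher and 6.14% lower at number 1, 15.4% and 11.6% at number 2, and 26.3% and 25.5% at number 4. The lists were not tested against these shares. Of 19 measured assembly factors of complex I, 9 were higher at number 1, 6 lower at number 2, and 1 higher and 9 lower at number 4. Of 22 for complex IV, 12 were higher at number 1, 6 lower and 1 higher at number 2, and 4 higher and 11 lower at number 4. Median differences at number 4 were -0.34 in both lists, against 0.08 for the subunits of complex I and 0.07 for the 10 general subunits of complex IV. The median at number 4 was -0.15 over all probe sets above the median level, of which 41.6% were lower there. The difference between factors and subunits was not tested. Of the 4 factors for complex II, 1 was higher at number 1, 1 lower at number 2, and 2 higher and 1 lower at number 4. Of the 6 for complex III, 2 were higher at number 1, 3 lower at number 2, and 2 higher and 2 lower at number 4. Of the 4 for complex V, 2 were lower at number 4 and none passed elsewhere.

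Of 18 factors for the upkeep and expression of mitochondrial DNA, 11 were higher and 1 lower at number 1, 4 higher and 2 lower at number 2, and 2 higher and 13 lower at number 4 (median -0.87). TFAM, which packages mitochondrial DNA and starts its transcription, was lower at number 4 by -1.42 ± 0.12 (SE; limma, adjusted p = 6.6e-05). Of 17 enzymes of the tricarboxylic acid cycle and the pyruvate dehydrogenase complex, 3 were higher and 1 lower at number 1, 5 lower at number 2, and 7 higher and 7 lower at number 4. All probe sets had 10.6% higher and 6.14% lower at number 1, 15.4% and 11.6% at number 2, and 26.3% and 25.5% at number 4. Of the probe sets above the median level, 41.6% were lower at number 4. Neither list was tested against these shares.

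Among 13 transcription regulators of respiratory genes, 3 were higher at number 1, 1 higher and 2 lower at number 2, and 4 higher and 4 lower at number 4. The shares of all probe sets were 10.6% higher and 6.14% lower at number 1, 15.4% and 11.6% at number 2, and 26.3% and 25.5% at number 4. The list was not tested against them. NRF1 was higher at number 4 (0.51 ± 0.14 SE; limma, adjusted p = 0.014), while GABPA, the DNA-binding subunit of GABP, was lower there (-1.09 ± 0.13, adjusted p = 0.000275). PPRC1, a coactivator of the PGC-1 family, had untreated levels of 8.66, 7.83, 8.0 and 5.92 and OICR levels of 8.64, 8.12, 8.12 and 6.59, lower at number 4 by -1.97 ± 0.15 (adjusted p = 4.8e-05). PPARGC1A, the best-known member of that family, was among the 4 called higher at number 4 but had a mean of 4.27, below the silent limit. ESRRA, a nuclear receptor that acts with it, ranged from 6.52 to 6.91 and did not pass.

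Treated and untreated samples were compared to ask whether the WDR5 ligand changed expression in collagen. No member passed: in limma 0 of 79 met the adjusted threshold in either direction, against 0% of all probe sets higher and 0% lower. At an unadjusted p under 0.05, 0 members passed, against 0.49% of all probe sets (105). For 0 members were treated and untreated levels fully separated, against 0.737% of all probe sets. Differences ran from -0.30 (COX6A2) to 0.24 (NDUFA5), with a median of -0.02 over the members and 0.01 over all probe sets, and 30 lay above 0 and 49 below. Medians were -0.01 in complex I, 0.10 in II, -0.03 in III, -0.05 in IV and -0.01 in V. None of the assembly, mitochondrial expression, cycle or regulator genes passed.

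Arrays of the same number resembled each other, so the number was also fitted as a replicate block. The median SE of a member was 0.229 without the block and 0.106 with it. With the replicate block 0 members passed the adjusted threshold, as did 0% of all probe sets, and the smallest adjusted p of a member was 0.841. At an unadjusted p under 0.05, 1 member (1.27%) passed, against 5.55% of all probe sets (1191).

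Within numbers, the sign of the members' differences varied from pair to pair. At number 1 the treated array was above the untreated one for 66 of 79 members, with a median of 0.11. At number 2 it was above for 25 (median -0.12), at number 3 for 34 (median -0.03) and at number 4 for 28 (median -0.05). Medians over all probe sets were -0.02, 0.01, 0.00 and 0.01. In complex I the pair medians were 0.16, -0.15, -0.03 and -0.05, in complex III 0.10, -0.14, -0.03 and 0.01, in complex IV 0.06, -0.25, -0.04 and -0.07, and in complex V 0.06, -0.07, -0.02 and -0.05. Complex II, with 3 genes, had 0.05, 0.10, 0.10 and 0.07.

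**Figure D4:**
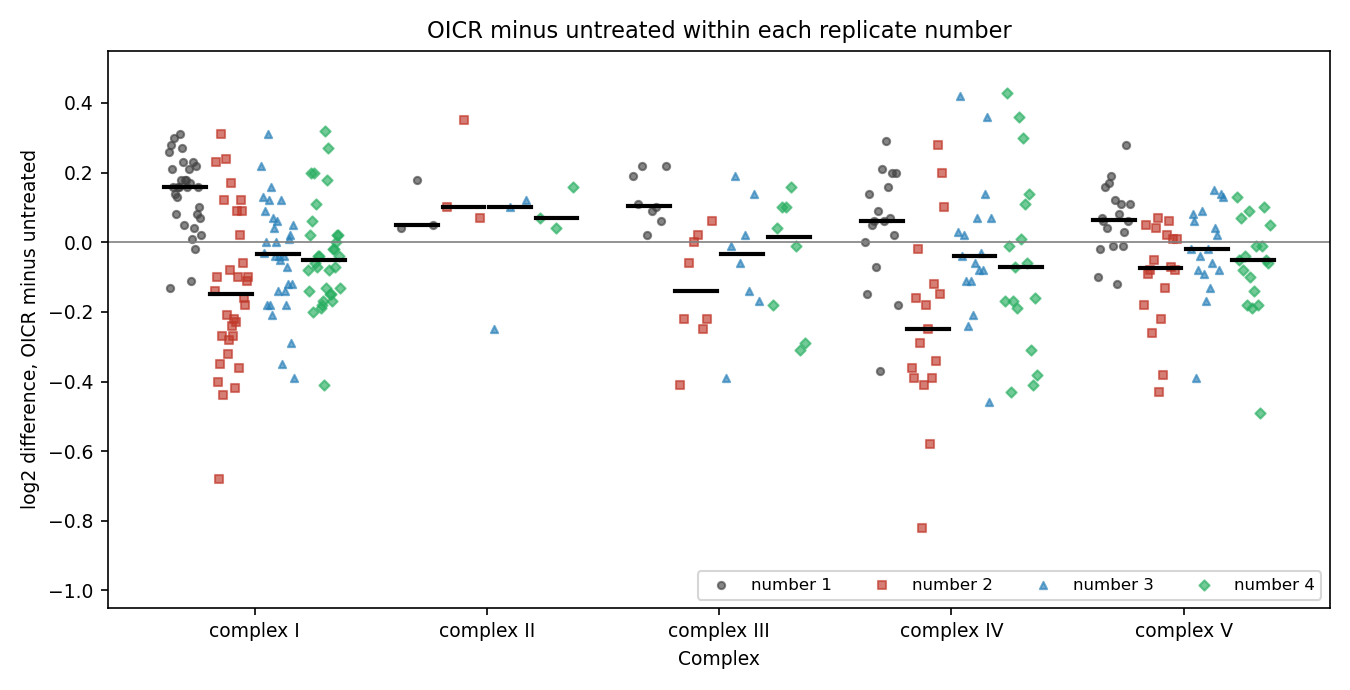
Log2 difference of the treated minus the untreated array of the same number (vertical axis) for each member of complexes I to V (horizontal axis). Marker shape and colour give the number and black bars the median of a complex at that number. Medians of complex I are 0.16 at number 1 and -0.15 at number 2, on opposite sides of 0.

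The treated array was above the untreated one in all 4 pairs for 6 members (7.59%), against 5.94% of all probe sets. It was below in all 4 for 3 (3.8%), against 6.62%. The 6 were NDUFA5, SDHC, SDHD, UQCRC2, ATP5PO and ATP5MC2, and the 3 were COX6A2, ATP5ME and ATP5MF-PTCD1. Neither count stands far from its background.

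NDUFA5 had pair differences of 0.14, 0.31, 0.31 and 0.20. Group means were 8.40 ± 0.76 untreated and 8.64 ± 0.78 with OICR-9429 (SD, n = 4 each), a difference of 0.24 ± 0.45 (SE). With the replicate block the SE was 0.095, the unadjusted p of limma 0.036 and the adjusted p 0.841. In the fit without the block, leaving out untreated 4 alone gave a difference of -0.14. That fit keeps OICR 4 and does not compare within numbers, while every pair difference was above 0. SDHC had pair differences of 0.18, 0.35, 0.10 and 0.04 and a mean difference of 0.17 ± 0.18 (SE), and SDHD 0.05, 0.07, 0.12 and 0.16 with 0.10 ± 0.24.

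COX6A2 had pair differences of -0.07, -0.82, -0.24 and -0.07. Group means were 7.31 ± 0.38 untreated and 7.01 ± 0.47 with OICR-9429 (SD, n = 4 each), a difference of -0.30 ± 0.27 (SE), most of it from number 2. ATP5ME (-0.01, -0.43, -0.17 and -0.19) and ATP5MF-PTCD1 (-0.12, -0.38, -0.13 and -0.01) also had their largest difference at number 2. In the fit without the block, leaving out OICR 2 alone gave mean differences of 0.090 and 0.039. That fit keeps untreated 2 and does not compare within numbers, while every pair difference of these genes was below 0. UQCR10, a small complex III subunit, had 0.19, -0.41, -0.39 and -0.18, and NDUFV3, an accessory subunit of the NADH-oxidising tip, 0.02, -0.10, -0.39 and -0.13. Neither passed with or without the block. PPARGC1B, a coactivator of the PGC-1 family outside the symbol rule, had a difference of -0.36 and did not pass (limma, adjusted p = 1).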

How the data were processed

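RNA was extracted with the NucleoSpin RNA kit and labelled with the GeneChip WT PLUS kit, per the labels' protocols. The deposited values are log2 expression levels per probe set, and the authors used Transcriptome Analysis Console and RMA, which corrects background, normalizes arrays together and summarizes probes, per the submitters' processing notes. Versions and genome build: not given in the sources used here. Scanner files, background signal and scan batch were not used here. RMA fits arrays to a common distribution, so a shift shared by most genes would be lost.

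Probe sets were named from GEO's platform annotation, which gave 1 symbol to 17709, and reading members by current RefSeq symbol changed 0 of them. The members, lists and tests were chosen with earlier results of these data known. Lists held assembly factors of each complex, mitochondrial DNA expression, tricarboxylic acid cycle, regulators and cell markers.

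Groups of 4 arrays were compared with limma 3.58.1 (R 4.3.3; lmFit, eBayes, two-sided, Benjamini-Hochberg over 21448 probe sets, threshold 0.05), without a covariate. Numbers were tested in a model of number and treatment. The scripts were tested on simulated data. Deviations from the group means correlated within same-numbered pairs at 0.696, 0.748, 0.566 and 0.865, all above 0.1, and 8 of 8 arrays correlated best with their own number, so the numbers in the titles pair the samples. The pairing rests on this correlation and not on a statement in the labels. Identical values were found in 0 pairs of arrays, and the number of arrays limits precision. Named genes were, per complex, the 2 highest and 2 lowest at number 4, the highest and lowest at number 1 and the smallest unadjusted p of treatment with and without the replicate block, with all complex II genes, isoform partners, subunit c genes and 9 other genes of the pathway. Other genes named beside these were chosen after their values were seen. Alternatives were a replicate block (fixed or random), trend and robust variance, a filter at the median level, centred arrays, each array or number left out and each group alone.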

Additional observations from a re-analysis of the deposited data

Results flagged for a closer look

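Levels of each of the 79 members and the mean level of each of 5 complexes were examined in each group of 4 arrays for an array far from the other 3 (Dixon's 95% critical value). Of 168 groups, 9 were past it, and chance gives about 1 in 20, or 8.4 of 168. NDUFA5 stood apart in both groups, at 7.28 on untreated 4 (others 8.68 to 8.95) and at 7.48 on OICR 4 (others 8.99 to 9.09). UQCR11 did so too, at 9.15 on untreated 2 (others 10.01 to 10.11) and at 8.93 on OICR 2 (others 10.04 to 10.22). The mean level of complex III was 9.37 on untreated 2, the others lying between 9.72 and 9.76. On the same array NDUFAB1 was 8.46 (others 9.06 to 9.14) and COX6A1 11.01 (others 11.36 to 11.41). ATP5F1A was 11.19 on untreated 3 (others 10.93 to 10.97). COX7B2, below the silent limit on every array, was 3.59 on untreated 4 (others 3.05 to 3.11).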

How the results depend on the processing

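Under every alternative run, 0 members passed the adjusted threshold for OICR-9429. At an unadjusted p, the count of 0 became 1 with the replicate block (1.27%, against 5.55% of all probe sets). It became 3 with the replicate block and trend and robust variance, and 2 or 1 with the replicate block without number 1 or 4. Apart from that 5.55%, shares of all probe sets under the alternatives are not given here. Changes in the members' counts were therefore not set against changes over the whole array. Trend and robust variance gave 45 members higher and 3 lower at number 1, 3 higher at number 2, 8 higher and 4 lower at number 3, and 17 lower at number 4. Testing only probe sets above the median level gave 42 higher and 3 lower at number 1, 2 higher at number 2, 2 higher at number 3 and a complex IV median of 0.25 at number 1. Centred arrays gave 0 lower at number 1. Without number 4, 29 members differed between numbers, 0 were lower at number 1, and NDUFA5 at number 2 was -0.062. Medians of complexes II and IV were then 0.22 and 0.10 at number 1, -0.098 and -0.072 at number 2, and -0.12 and 0.07 at number 3. Untreated arrays alone gave medians of 0.27 (complex I, number 1) and -0.07 (IV, number 2). OICR arrays alone gave 0.59, 0.30 and 0.15 (I, III and IV, number 1), -0.45 (IV, number 2) and 0.18 (IV, number 4). With each array left out in turn, counts ranged over 1 to 26 higher and 0 to 2 lower at number 1, 0 to 1 higher and 10 to 34 lower at number 2, 12 to 21 higher and 6 to 12 lower at number 4, and 35 to 45 differing between numbers. Medians then ranged over -0.14 to 0.12, -0.029 to 0.215 and -0.15 to 0.09 for OICR-9429 in complexes I, II and III, 0.27 to 0.59, 0.11 to 0.30 and -0.041 to 0.153 at number 1 in I, III and IV, and -0.45 to -0.07 and 0.18 to 0.37 in IV at numbers 2 and 4. For OICR-9429 the sign turned in NDUFA5 (range -0.135 to 0.628, turned without untreated 4) and, without OICR 2, in UQCR10 (-0.36 to 0.036), ATP5MF-PTCD1 (-0.286 to 0.039) and ATP5ME (-0.413 to 0.090). These OICR-9429 ranges are from the fit without the block. The array of the same number stays in the other group there, so differences between numbers enter these ranges. An array left out leaves its number with 1, which is assumed to vary like the rest. Among genes named by the rule, 29 of 47 calls between numbers were lost in at least 1 alternative. The cause of these shifts was not tested.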
